A study of Homo sapiens with 2 samples.

Results

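The genes described here encode the intercellular adhesion molecules ICAM1 to ICAM5, the related molecules VCAM1 and PECAM1, and SELPLG, the core protein of the P-selectin ligand. They were taken by name from the gene column of the deposited arrays. All 8 names were found, with 11 of the 58201 probes and 8 of the 43270 genes or transcripts in all: PECAM1 had 3 probes, SELPLG had 2 and the other 6 genes had 1 each. Expression was compared between R-HL60, a cytarabine-resistant line obtained by growing HL60 under stepwise higher cytarabine, a deoxycytidine analogue that blocks DNA synthesis, and its parent HL60. HL60 is a promyelocyte-like line from acute myeloid leukaemia, and the parental culture received no drug. Both were kept in the same medium with serum, and the sources used here do not give whether R-HL60 is a clone or whether the drug was present at harvest. RNA of each line was measured on 1 one-colour Agilent array, so no difference has a replicate check, no p-value was computed, and line, culture and array cannot be told apart.

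Adhesion molecules of this kind let leukocytes stop on and cross vessel walls. Selectins first catch leukocytes by sugars carried on ligands such as the product of SELPLG. Activated integrins then bind the immunoglobulin-like domains of the ICAMs and VCAM1, and PECAM1 acts at the cell junctions that the leukocytes pass. In background knowledge, ICAM1 and VCAM1 are the inducible members, switched on by inflammatory cytokines through NF-kB, whereas ICAM2 and ICAM3 are largely constitutive.

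A gene was counted as measured on an array when its signal lay above that array's median, which served as the floor, at 32.8 units on the R-HL60 array and 30.7 units on the HL60 array. Differences are log2 values, R-HL60 minus HL60, after each array's 75th percentile was subtracted. Where a gene had several probes the brightest stood for it, and every probe is also given. The 1 error that could be computed was the disagreement between probes of the same gene: in 4723 genes with several measured probes, their log2 differences scattered with an SD of 0.19, which was 0.28 in the dimmest and 0.11 in the brightest bin. Variation from culture to culture or array to array is not part of it.

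R-HL60 carried a higher signal for ICAM1 and a moderately higher signal for ICAM2, while ICAM3 and PECAM1 were nearly equal. For VCAM1 only a bound at the edge of 2-fold could be given. Of the 8 genes, 6 were above the floor on both arrays, VCAM1 was above it in R-HL60 only, and ICAM5 was below it on both. At least 2-fold higher in R-HL60 were 2 of them, ICAM1 and VCAM1, and 0 were 2-fold lower. The call of VCAM1 ended under every other scaling tried, with the offset and with the floor at percentile 60, which left 1, ICAM1. Over all 23531 genes above the floor on at least 1 array, 0.786% passed 2-fold as higher and 0.297% as lower, so 72.5% of the calls were higher, against 58.6% with a median shift. The 7 genes above the floor had a median of 0.42, against -0.03 over all genes. Values above 0 were found for 6 of the 7, against 43.3% of all genes. VCAM1 entered these counts only through its signal in R-HL60, and its bound could not fall below 0. The genes were chosen with earlier results of these data known, so the counts and the median describe them and are no test.

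**Figure D1:**
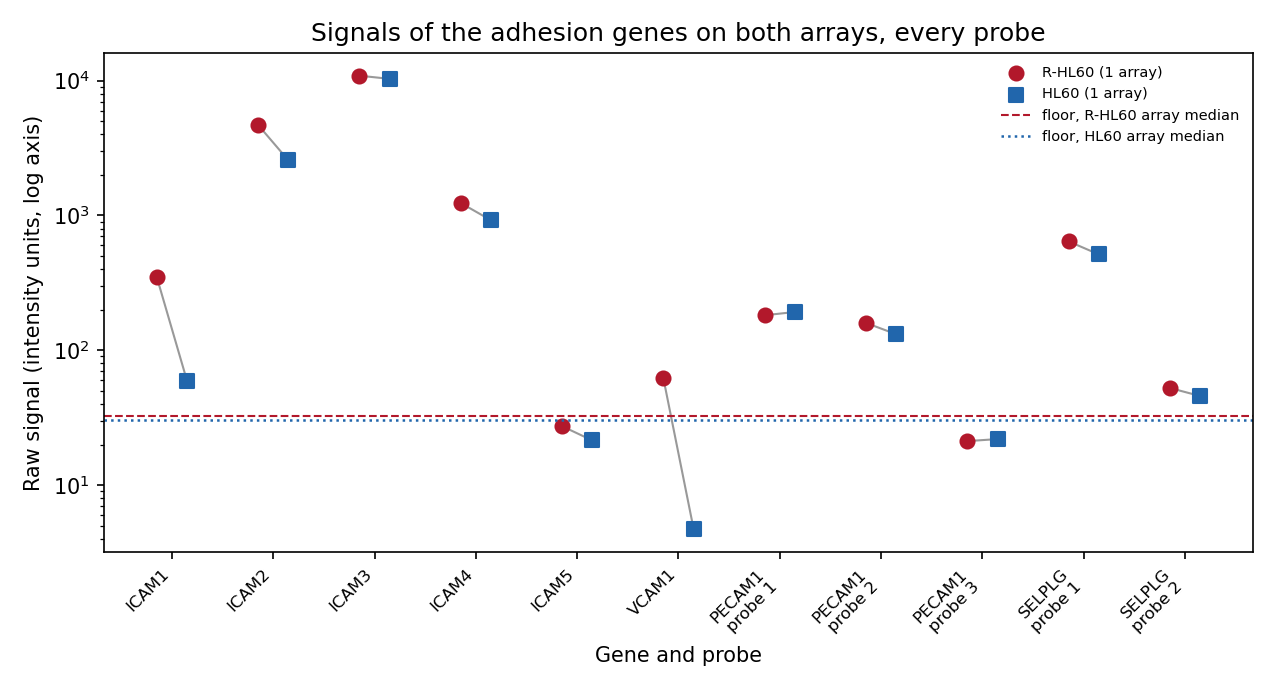
Raw signal of every probe of the 8 genes (intensity units, log axis), with R-HL60 as red circles left of HL60 as blue squares, 1 array each; dashed and dotted lines are the array medians used as floors. ICAM1 stands at 352 in R-HL60 and 59.3 in HL60, VCAM1 crosses the floor in R-HL60 only, and ICAM3 is nearly level.

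ICAM1 encodes the main inducible ligand of the leukocyte integrins LFA-1 and Mac-1 and is also the receptor of most rhinoviruses. Its 1 probe gave a signal of 352 in R-HL60, against 59.3 in HL60. The R-HL60 value was far above its array's floor and the HL60 value close above its own. The log2 difference was 2.56, or 5.90-fold higher in R-HL60, where the probe-to-probe SD at this brightness was 0.21. Of the 21838 genes measured on both arrays, 14 had a difference at least as high as this, ICAM1 included, or 0.0641%. With 50 units added to both arrays, a setting that weighs dim signals less, the difference was 1.87, or 3.66-fold.

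VCAM1 encodes a ligand of the integrin VLA-4, which is made of the products of ITGA4 and ITGB1, and is best known from cytokine-activated endothelium. Its 1 probe gave a signal of 62.5 in R-HL60, against 4.70 in HL60. The R-HL60 signal was above the floor and the HL60 signal was among the dim probes that have no order, so only a bound can be given. VCAM1 was at least 2.03-fold higher in R-HL60, a log2 bound of 1.02. This bound lay at the edge of the threshold: it was 0.93 to 0.95 under the other scalings, 0.47 with the offset of 50 units, and could not be had with the floor at percentile 60, where VCAM1 was below the floor on both arrays.

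VCAM1, ICAM2 and PECAM1 are also endothelial genes. Of 8 further endothelial markers, 3 were above the floor on both arrays, TEK, CLDN5, TIE1 and ROBO4 were below it on both, and EMCN was above it in HL60 only. Their summed signal was 323 in R-HL60 and 332 in HL60, with VWF at 109 against 76.7 and CDH5 at 120 against 148. The promyelocytic character of the line was measured with 6 genes, all above the floor on both arrays and all with differences below 0, at a median of -0.18. Myeloperoxidase, MPO, stood at 285746 in R-HL60 and 309491 in HL60, the proteinase 3 gene PRTN3 at 18985 against 32955, and the neutrophil elastase gene ELANE, at 153 against 700, was the only gene past 2-fold among 8 marker lists of cell types. Over all genes 0.786% were called higher and 0.297% lower.

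The sequences upstream of ICAM1 and VCAM1 are shown because these were the genes past 2-fold, with that of ICAM4, the next gene along from ICAM1, for contrast. The windows are the 250 bases before the start site in RefSeq on GRCh38.p14, all on the plus strand: chr19:10270870-10271119 for ICAM1, chr1:100719492-100719741 for VCAM1 and chr19:10286705-10286954 for ICAM4. Capitals mark matches, on either strand, to a kappaB-like motif (GGANNTNCC), a GAS-like motif (TTCNNNGAA) and the TATA motif (TATAAA).
ICAM1: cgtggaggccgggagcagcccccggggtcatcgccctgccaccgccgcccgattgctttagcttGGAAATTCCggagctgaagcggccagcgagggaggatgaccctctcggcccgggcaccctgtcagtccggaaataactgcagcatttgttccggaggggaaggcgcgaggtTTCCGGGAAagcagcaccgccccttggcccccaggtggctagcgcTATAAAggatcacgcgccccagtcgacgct
VCAM1: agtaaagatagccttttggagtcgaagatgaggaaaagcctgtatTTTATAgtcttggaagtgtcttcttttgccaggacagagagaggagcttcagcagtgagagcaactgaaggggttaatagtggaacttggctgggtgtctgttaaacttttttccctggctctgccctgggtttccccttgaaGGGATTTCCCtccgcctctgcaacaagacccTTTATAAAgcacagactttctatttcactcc
ICAM4: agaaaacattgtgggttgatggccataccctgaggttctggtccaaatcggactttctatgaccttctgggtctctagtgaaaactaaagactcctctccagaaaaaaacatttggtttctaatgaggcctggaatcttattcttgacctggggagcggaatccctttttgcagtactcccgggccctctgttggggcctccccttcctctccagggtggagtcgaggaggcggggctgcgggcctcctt
The ICAM1 window held all 3 motifs. Its kappaB-like match GGAAATTCC ran from 186 to 178 bases before the start, its GAS-like match TTCCGGGAA from 75 to 67 and its TATA match from 30 to 25. The VCAM1 window held a kappaB-like stretch, GGGATTTCCC, from 62 to 53 bases before the start, which the motif matched on both strands. The same window held TATA matches at 31 to 24 and 205 to 200, and no GAS-like match. No match was found in the ICAM4 window. NF-kB binds sites of the kappaB type, and STAT factors bind GAS elements. These short motifs are common: of 35116 windows of the same length, 13.5% held the kappaB-like motif, 6.57% the GAS-like motif and 10.7% the TATA motif. Among the other ICAM windows the ICAM5 window and the first and second of the 3 ICAM3 windows held none, and the third ICAM3 window held a kappaB-like match. The table had windows for 5 of the 8 genes. A match describes the letters only, and binding was not measured.

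**Figure D2:**
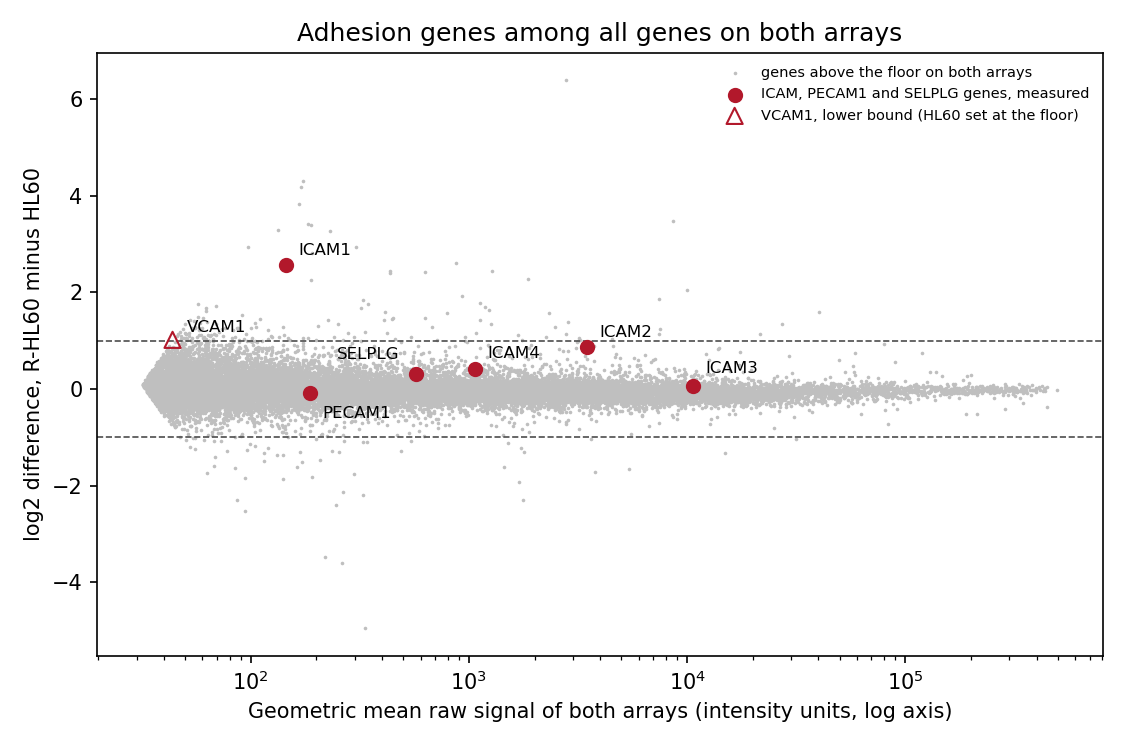
log2 difference, R-HL60 minus HL60, against the geometric mean raw signal (intensity units, log axis) of the 21838 genes above the floor on both arrays in grey, with the adhesion genes in red and dashed lines at 2-fold. ICAM1 at 2.56 lies above the cloud, ICAM2 at 0.87 at its upper edge, ICAM3 and PECAM1 lie within it, and the open triangle is the bound for VCAM1.

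ICAM2 encodes a short ligand of LFA-1 found on endothelium, platelets and leukocytes. Its 1 probe gave a signal of 4705 in R-HL60, against 2564 in HL60. Both signals were far above the floor, and the R-HL60 value was the higher. The log2 difference of 0.87, or 1.82-fold, did not reach 2-fold, and 1.01% of genes measured on both arrays had a difference at least as high. The probe-to-probe SD at this brightness was 0.14, which holds no variation between cultures or arrays. The difference ran from 0.78 to 0.93 over the other settings.

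ICAM3 encodes the LFA-1 ligand of resting leukocytes, also bound by the lectin of dendritic cells encoded by CD209. Its signal was 10891 in R-HL60, against 10315 in HL60. The values were close, with a log2 difference of 0.07 that was below the probe-to-probe SD of 0.11 and turned to -0.02 with a median shift.

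ICAM4 encodes the Landsteiner-Wiener blood group protein of red cells. Its signal was 1239 in R-HL60, against 922 in HL60. The difference of 0.42, or 1.34-fold, stayed well under 2-fold, and 6.26% of genes measured on both arrays were at least as high. The probe-to-probe SD was 0.14, without variation between cultures or arrays. ICAM5, or telencephalin, is an adhesion molecule of forebrain neurons. Its signals of 27.4 in R-HL60 and 21.4 in HL60 were both below the floor, so it has no measured difference.

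PECAM1 encodes a molecule that binds itself between neighbouring cells and carries inhibitory tyrosine motifs in its tail. Its brightest probe gave 182 in R-HL60, against 192 in HL60. The next probe gave 160 in R-HL60, against 132 in HL60. The remaining probe gave 21.2 in R-HL60 and 22.0 in HL60, below the floor on both arrays. The measured probes pointed in opposite directions, with differences of -0.09 and 0.27 at a probe-to-probe SD of 0.21, so no direction can be given for PECAM1.

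SELPLG encodes the mucin-like protein that, once decorated with sugars and sulphate, binds P-selectin. Its brighter probe gave 643 in R-HL60, against 514 in HL60. Its dimmer probe gave 52.5 in R-HL60, against 45.8 in HL60. Both probes were slightly higher in R-HL60, at 0.31 and 0.19, or 1.24-fold and 1.14-fold. The brighter probe differed by more than the SD of 0.15 at its brightness and the dimmer one by less than its SD of 0.28. Neither SD holds variation between cultures or arrays.

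**Figure D3:**
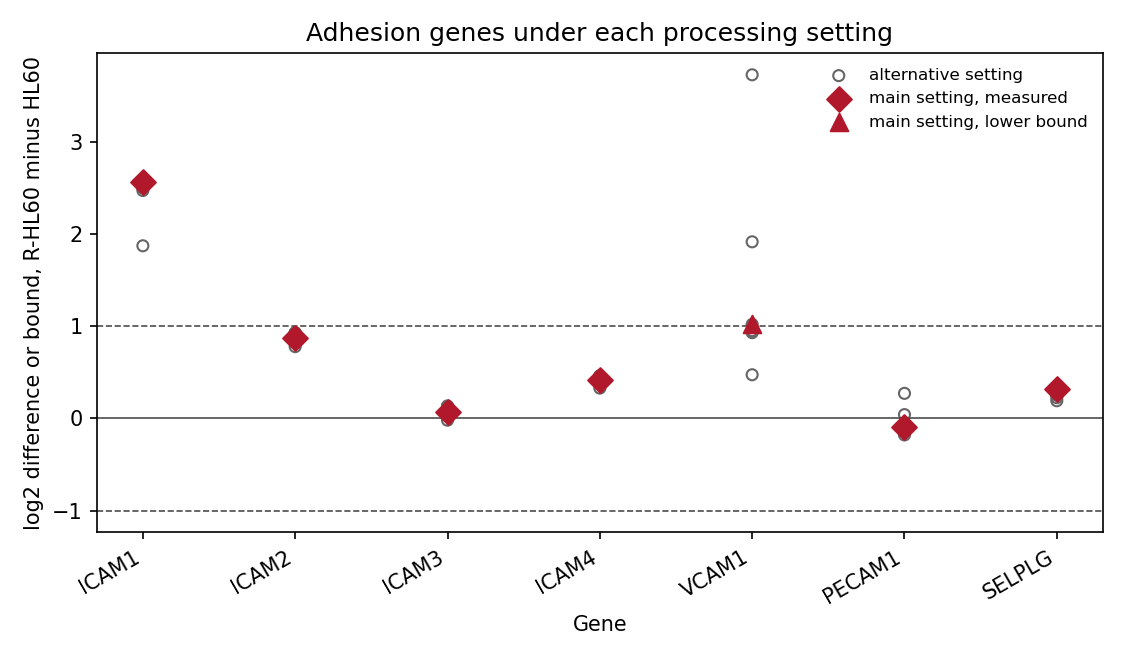
log2 difference or bound, R-HL60 minus HL60, of the 7 genes above the floor on at least 1 array, with the main setting in red and each alternative as an open circle; dashed lines are 2-fold. ICAM1 stays between 1.87 and 2.56 and ICAM2 between 0.78 and 0.93, while VCAM1 runs from 0.47 to 3.72, the last being its plain ratio with no floor. For ICAM1 the value with the floor at percentile 60, 2.50, is a bound.

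The genes ICAM1, ICAM4, ICAM5 and ICAM3 lie in 1 stretch of chromosome 19 in the RefSeq gene order, and their differences varied along it. ICAM1 was at 2.56, while the next gene ICAM4 was at 0.42, and ZGLP1, FDX2 and RAVER1, which lie between ICAM5 and ICAM3, were at 0.04, 0.04 and 0.13. On the other side of ICAM1, the mitochondrial ribosomal protein gene MRPL4 was at -0.07, and the gene beyond it, S1PR2, was at 1.42. S1PR2 encodes a receptor for sphingosine 1-phosphate, a lipid that guides leukocyte movement, and its signal was 370 in R-HL60, against 137 in HL60, or 2.68-fold higher. It was the only gene past 2-fold among the 9 other genes from DNMT1 to PDE4A, whose median was 0.04, and also among the 28 measured of 31 neighbours, taken as 3 on each side of each member, whose median was 0.01. Over all genes 0.786% were called higher and 0.297% lower. ICAM2 and PECAM1 lie close together on chromosome 17, where the neighbours CD79B and ERN1 were at 0.67 and 0.43 and TEX2 was at -0.38. The neighbours of VCAM1 on chromosome 1 ran from SLC30A7 at -0.23 to LINC01349 at 0.40, and the measured neighbours of SELPLG on chromosome 12 from SART3 at -0.13 to CORO1C at 0.08.

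**Figure D4:**
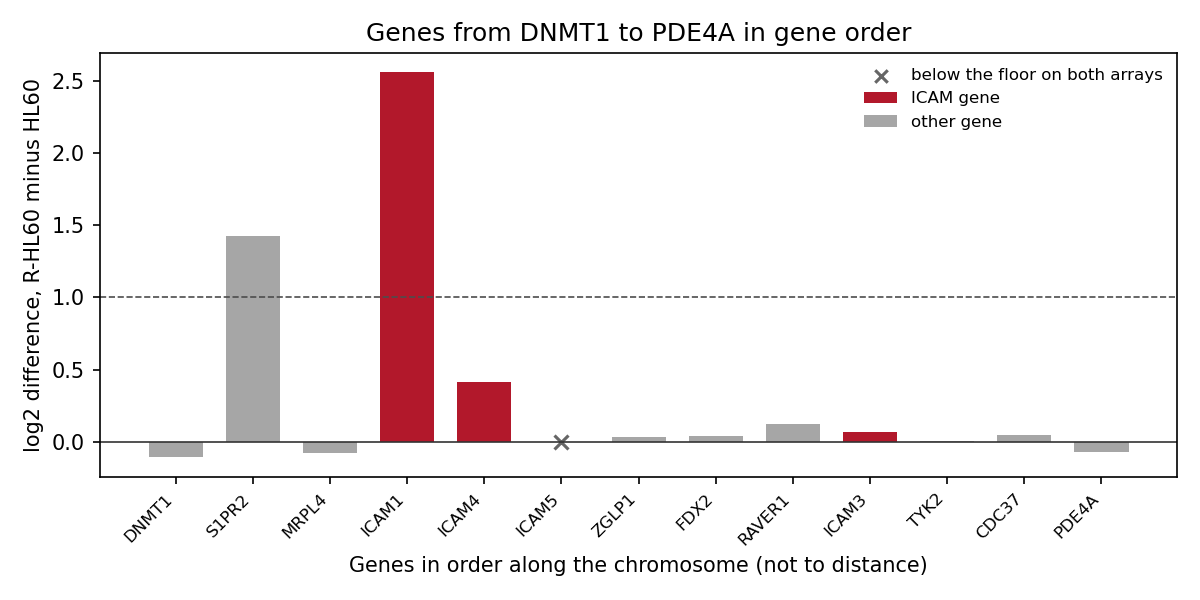
log2 difference, R-HL60 minus HL60, of 13 genes from DNMT1 to PDE4A in their order on chromosome 19 (distances not to scale), with ICAM genes in red, other genes in grey and a cross for ICAM5, below the floor on both arrays. ICAM1 and S1PR2 stand above the dashed 2-fold line and the genes beside them do not.

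Of the 12 integrin genes whose products bind these molecules, 11 were above the floor, 0 passed 2-fold in either direction, 8 were above 0 and the median was 0.13. Over all genes 0.786% were called higher and 0.297% lower, shares at which a list this short would hold few or no calls. Values above 0 made up 43.3% of all genes, whose median was -0.03. ITGB2, the beta2 chain shared by LFA-1 and Mac-1, had a signal of 15723 in R-HL60, against 9399 in HL60, a difference of 0.73, and its dimmer probe gave 0.62. Its alpha partners were ITGAL of LFA-1 at 0.50, ITGAX at 0.49, ITGAM of Mac-1 at 0.40 and ITGAD, close to the floor, at 0.09. The brightest probes of ITGA4 and ITGB1, the chains of VLA-4, were at -0.17 and -0.33. The next probe of ITGA4 gave -0.19 and its dimmest gave 0.05, while the dimmer probe of ITGB1 was below the floor on both arrays. ITGB7 was at 0.02 and ITGA9 at -0.02. The difference between the beta2 integrins and the receptors of VCAM1 was not tested.

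Of the measured genes of selectin binding 0 passed 2-fold, where 0.786% of all genes were called higher and 0.297% lower, shares at which lists of this length would hold few or no calls. The selectin genes SELE and SELP were below the floor on both arrays. Of 18 genes for the enzymes and transporter that build the selectin-binding glycan or sulphate the ligand, 14 were above the floor, 0 passed 2-fold and the median was -0.03. The largest difference was that of the sialyltransferase gene ST3GAL6 at 0.71, with a signal of 317 in R-HL60 against 192 in HL60. CHST4, a sulphotransferase gene, was at -0.65, and the fucosyltransferase gene FUT7, needed for selectin ligands of leukocytes, was at -0.45. Of 6 other selectin ligand proteins 4 were above the floor, with a median of -0.12. The largest difference was that of CD44, a hyaluronan receptor, at 0.30, whose signal was 11960 in R-HL60 against 9654 in HL60.

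Among 19 further leukocyte adhesion and transmigration molecules, 13 were above the floor and 1 was past 2-fold, with a list median of -0.05. Over all genes 0.786% were called higher and 0.297% lower. The gene past 2-fold was CD48, a lipid-anchored member of the immunoglobulin superfamily on blood cells. Its 1 probe gave a signal of 1000.3 in R-HL60, against 188 in HL60. Both signals were above the floor and the difference was 2.40, or 5.28-fold higher in R-HL60, and 2.13 with the offset of 50 units. The junctional molecule F11R, at 0.02, CD99, at -0.07, and CD58, at -0.05, were close to equal, and the neural adhesion molecule NCAM1 was at -0.69 on its brightest probe and -0.21 on the next. The cytoplasmic partners, such as the ezrin and moesin genes EZR and MSN, both at -0.03, and the kinase gene SYK at -0.02, had a median of -0.05 over 12 genes, all above the floor and 0 past 2-fold. At the shares of all genes, a list of 12 would hold few or no calls. The largest difference among the cytoplasmic partners was that of VAV1 at -0.24.

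**Figure D5:**
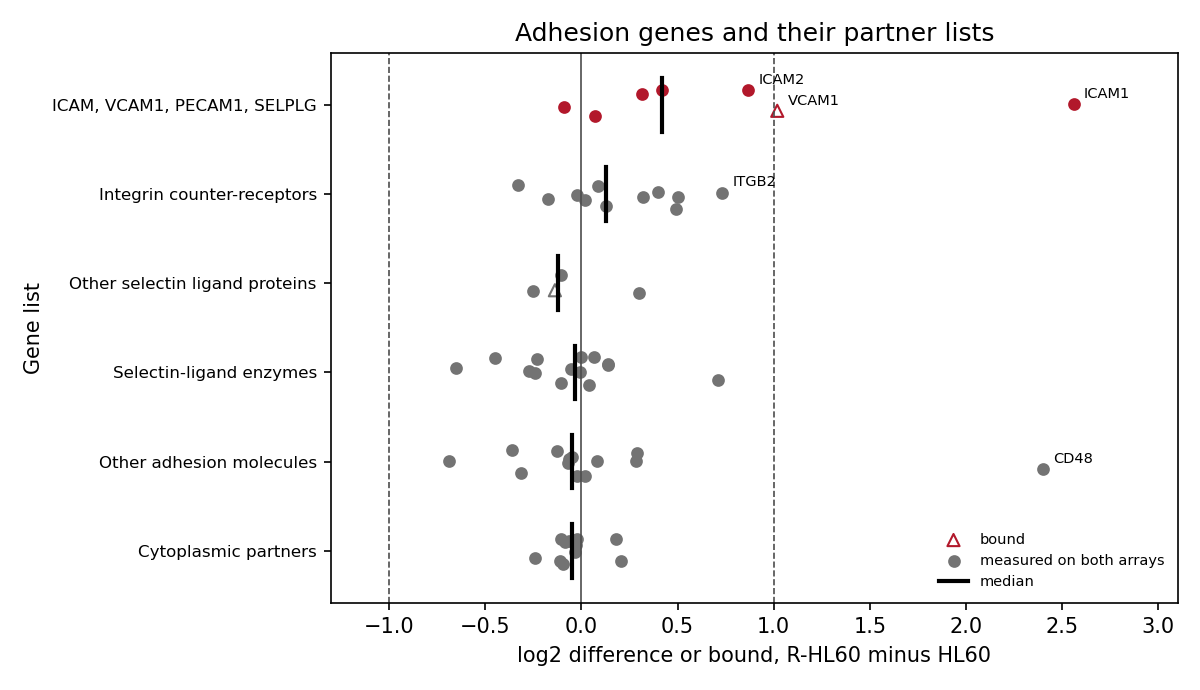
log2 difference or bound, R-HL60 minus HL60, of each gene above the floor on at least 1 array in the 8 adhesion genes (red) and 5 partner lists (grey), with black bars for medians and dashed lines at 2-fold. ICAM1 at 2.56 and CD48 at 2.40 stand apart.

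The genes whose difference was closest to that of ICAM1 over the 2 arrays were BCL3, ASB2, TNFAIP3, GHRL and CD48. The gap in log2 difference was 0.05 for BCL3, which encodes an IkB-like partner of NF-kB, 0.11 for the ubiquitin ligase subunit gene ASB2 and 0.12 for TNFAIP3, which encodes the NF-kB inhibitor A20. It was 0.14 for the ghrelin gene GHRL and 0.16 for CD48. With 1 array per line this likeness is a like size of difference and nothing more.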

How the data were processed

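RNA of R-HL60 and HL60 was labelled with Cy3 and read on 1-colour arrays, per the labels' protocols. Agilent Feature Extraction 10.7.3.1 was used, per the submitters' processing notes. The authors deposited 1 linear intensity per probe and array beside a gene name; probe identifiers, detection flags and background were not among the columns, and the scanner column taken was not given in the sources used here. Their normalized intensities, also deposited, served as an alternative. Sorted by size, they lay within 1.06% of the sorted quantile-normalized values, a comparison that was not made probe by probe.

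Intensities were log2-transformed and centred on the 75th percentile of their array. The floor was the array median. A gene above it on 1 array only has a bound against the higher of the floor and its own value. Of the 43317 names in the files, 21081 were current symbols in a RefSeq gene table of GRCh38.p14 and 1567 were older symbols that led to 1 gene and were renamed. The table served only for names and gene order, since no source used here names the array's build. Upstream sequences came from RefSeq on GRCh38.p14.

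The members and lists were chosen with earlier results of these data known. Named were all members, their 3 nearest genes on each side, the 5 genes closest to ICAM1 in difference and, from each list, up to 4 genes past 2-fold or otherwise the one with the largest difference. Other genes were named after their values were seen. With 1 array per line, that number limits the precision. Alternatives changed the scaling, the offset, the floor, the threshold and the choice of probe. The steps were tested on simulated data, with changes planted only in bright genes above the floor on both arrays. Dim genes and bounds, such as that of VCAM1, were not covered by it. Python 3.11.15, numpy 2.4.6, pandas 2.3.3, statsmodels 0.14.6 and matplotlib 3.10.9 were used.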

Additional observations from a re-analysis of the deposited data

How the results depend on the processing

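Of 86 values and counts for the adhesion genes under alternatives, 74 moved by less than the probe-to-probe SD of 0.19, or by at most 1.5 times for a count, and no called value changed sign. Many of the 74 could not move, so their number does not measure stability. A change of floor or of probe choice leaves a bright gene with 1 probe as it was, and the authors' table nearly repeats quantile normalization. The loss of VCAM1 at percentile 60 is not among the 86. The offset of 50 units moved ICAM1 to 1.87 and the VCAM1 bound to 0.47. With the floor at percentile 60, ICAM1 was above it in R-HL60 only, and its value of 2.50 was a bound. The VCAM1 bound was 1.91 with the floor at percentile 40 and 3.72 with no floor. ICAM5 was measured only with the floor at percentile 40 or with none, at 0.34, and the second PECAM1 probe gave 0.27. The count of genes at least 2-fold higher was 1, ICAM1 alone, in place of 2 under several settings, since VCAM1 dropped out. These were a threshold of 3-fold, the floor at percentile 60, the offset, loess by brightness, a median shift, quantile normalization and the authors' table. With a threshold of 1.5-fold the count was 3, as ICAM2 joined. Over all genes the counts higher and lower were 66 and 40 with the offset, 346 and 109 with the floor at percentile 40, 102 and 50 at percentile 60 and 2536 and 1300 with no floor, against 185 and 70. No paired analysis was possible because each line has 1 array. Without background values or flags, signals near the floor limit VCAM1, ICAM5 and the HL60 side of ICAM1.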

Other observations

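Further binding partners of the adhesion molecules were looked up after the values of these arrays had been seen. CD38, an ectoenzyme described as a ligand of PECAM1, had a signal of 747 in R-HL60, against 269 in HL60, on its 1 probe. It was 2.76-fold higher, a log2 difference of 1.46, and 1.31 to 1.49 over the alternatives. CD244, a receptor for CD48 on killer cells and myeloid cells, had a signal of 237 in R-HL60, against 126 in HL60, on the brighter of its 2 probes, a difference of 0.90 that did not reach 2-fold. CD2, which also binds CD48, was close to the floor at 38.8 in R-HL60, against 49.6 in HL60, a difference of -0.36. Of the others, the PECAM1 ligand CD177 was at 0.15, and the lectins CD209 and CLEC4M, which bind ICAM3, were at 0.13 and 0.08. The mucin MUC1, a ligand of ICAM1, was at 0.17, with signals close to the floor at 35.5 in R-HL60, against 31.3 in HL60.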
